A study of Saccharomyces cerevisiae with 27 samples.

Results

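Strong Arp5 binding covered 2562 regions of the budding yeast genome, made from 13664 of the 241434 nuclear windows of 50 bp. Regions were chosen by the deposited log2 ratio of Arp5 ChIP over input: windows on the authors' list of significant windows with a ratio of at least 1, that is 2-fold, were kept and adjacent ones were joined. The list held 84757 windows, with ratios between 0.117 and 3.45. The strong windows were 16.1% of that list and 5.66% of all nuclear windows. The Arp5 ratio of the regions is therefore given as a description and was not tested.

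Of the 27 libraries, all from Saccharomyces cerevisiae, 19 were RNA and 8 were ChIP or input DNA. RNA came from cells in rich medium that lacked arp5 (3 libraries), ies6 (3), ies2 (2) or sir3 (3), or both sir3 and arp5 (1), each set against the wild type BY4741 (3), and from ino80 deletion cells (2), set against their wild type CY337 (2). The titles of 7 RNA libraries carry the word BIOO, that of the sir3 arp5 library among them. BY4741 has RNA libraries with and without this word. H3K79me3, H3K4me3 and input DNA were read once each in arp5 cells and in BY4741 cells, from sonicated nuclei. Arp5 and its input were read once in strain CY1838, labelled wild type, whose cells were held in G2/M by nocodazole before release into alpha-factor; its chromatin was cut with micrococcal nuclease. The genotype field calls the ChIP libraries of arp5 wild type, and the titles were followed instead. RNA was not measured in CY1838, the marks were not mapped in it, and an Arp5 ChIP from cells without Arp5 was not analysed here.

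Arp5 is an actin-related subunit of INO80, a remodelling complex that slides and spaces nucleosomes and works at promoters, replication forks and broken DNA. Ino80 is its ATPase, Ies6 binds Arp5 within the complex, and Ies2 is a further subunit. Sir3 belongs to silent chromatin and is not part of INO80. H3K4me3 is laid down by Set1 and marks the first nucleosomes of transcribed genes. H3K79me3 is laid down by Dot1, spreads over gene bodies and is low in silent chromatin. Alpha-factor is the pheromone that drives MATa cells to arrest and to switch on the mating genes.

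The deleted genes checked the RNA labels. ARP5 stood at 0 both in arp5 and in sir3 arp5 cells, against 35.02 FPKM in BY4741. IES6 had 0.225 FPKM in ies6, against 185 in BY4741, and IES2 was listed at 0 in ies2, against 62.8 in BY4741. INO80 had 0.523 FPKM in ino80, against 22.1 in CY337. SIR3 had 0.0572 FPKM in sir3 and 0 in sir3 arp5 cells, against 10.04 in BY4741. Every genotype has 1 deposited RNA value per gene and every ChIP has 1 library, so no value has a replicate, an SD or a test, and read depth is unknown. Genes of 1 genotype and windows of 1 library are not replicates of it.

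Most regions were short and close to the threshold. Their length ran between 50 and 3150 bp with a median of 200 bp; 533 regions were a single window, and 90 were at least 1000 bp long. The summit, the highest Arp5 ratio of a region, had a median of 1.19; 491 summits were at least 1.5 and 30 were at least 2. The lowest strong window stood at 1.00005 and the highest window left out at 0.999989, and 2069 windows lay between 1 and 1.05, against 2447 between 0.95 and 1. Strong windows occurred on all 16 chromosomes, with the highest share on III (8.27% of its windows) and the lowest on XII (3.58%), where no window over an rRNA gene was on the Arp5 list. Of all regions 4.25% lay within 20 kb of a chromosome end, beside 5.30% of all windows.

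Transfer RNA genes carried the most regular strong Arp5 signal. Transfer RNA genes are short, densely transcribed units of RNA polymerase III. Of 275 nuclear tRNA genes, 274 had a strong window over them, and the highest Arp5 ratio per gene ran between 1.12 and 2.22 with a median of 1.69. Among the windows that overlap a tRNA gene 99.7% were strong, within 100 bp it was 84.2%, between 250 and 500 bp 16.3%, and beyond 2000 bp 4.56%. The exception was YNCC0008W on chrIII:149920-149991, which had no window on the Arp5 list. SUF1 on chrXV:110962-111033, had the highest ratio, 2.22, and the lowest of the 274 was YNCD0023C with 1.12. The 267 regions that overlap a tRNA gene were 10.4% of all regions; they made up 48.4% of the regions with a summit between 1.5 and 2, and 0.26% of those under 1.25.

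Other small RNA genes were more mixed. RPR1, the RNA of RNase P, reached an Arp5 ratio of 1.69, SNR52, a snoRNA read by polymerase III, 1.59, and SCR1, the RNA of the signal recognition particle, 1.274. SNR6, the U6 snRNA and also a polymerase III gene, stayed below the threshold with 0.848. Of 76 snoRNA genes 52 had a strong window, as had 2 of 6 snRNA genes, LSR1 (U2) with 1.47 and SNR14 (U4) with 1.17. Of the 5989 protein-coding genes with a RefSeq name and an RNA value, 664 had a strong window within them, 11.1%.

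**Figure D1:**
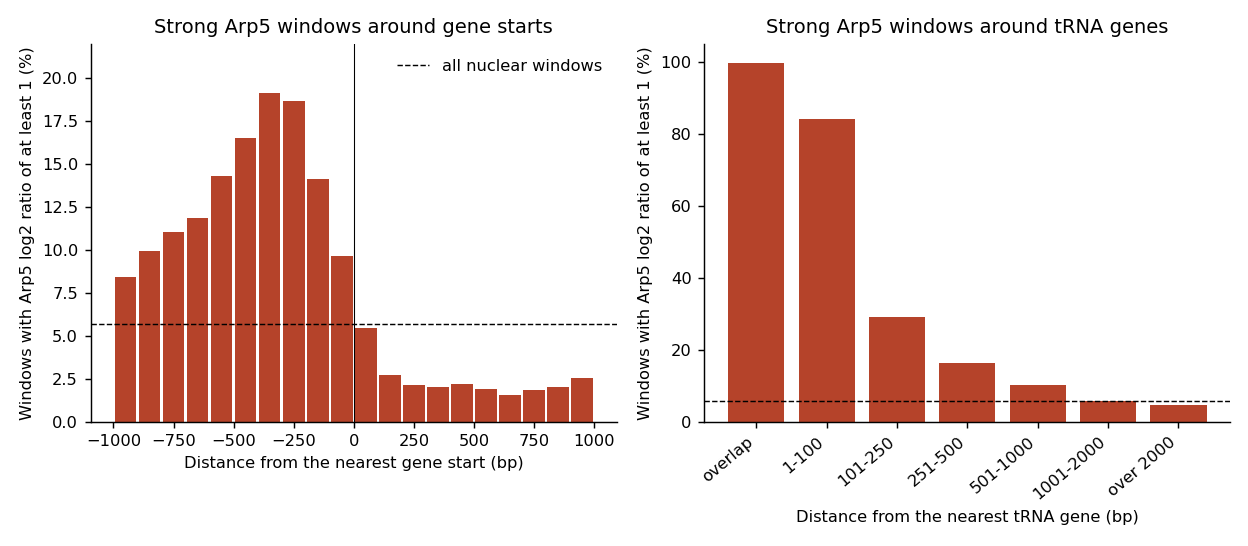
Share of 50-bp windows with an Arp5 log2 ratio of at least 1 (y axis, %) by distance from the nearest gene start in 100-bp bins (left, bp, negative before the start) and by distance from the nearest tRNA gene (right, bp). A gene start is the first base of the reading frame. Dashed lines show all nuclear windows (5.66%). The share reached 19.1% between 400 and 300 bp before a start and 99.7% over tRNA genes.

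Around protein-coding genes, strong regions sat in front of the start. The start used here is the first base of the reading frame, so positions are not distances from the transcription start. The summit lay before its nearest start in 1861 regions (72.6%), and its median position was -203.5 bp, with negative values before the start. The same share of all windows is not given here. Windows were fewer before starts: 7404 lay between 400 and 300 bp before one, and 11362 between 300 and 400 bp behind one. Between 400 and 300 bp before a start 19.1% of windows were strong, between 300 and 200 bp 18.7%, and between 100 and 0 bp 9.63%. Inside genes, between 200 and 900 bp behind the start, the share of each 100-bp bin was between 1.56% and 2.20%. Of the summits, 1528 of 2562 (59.6%) fell between 500 bp before and 100 bp behind a start, against 25.1% of all windows. With 300 bp in front instead of 500 bp the share of summits was 41.1%. The 25.1% does not apply to that narrower stretch, whose share of all windows is not given here.

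By place, 45.8% of summits lay between tandem genes, against 13.7% of all windows, and 27.8% between divergent genes, against 8.86%. Another 12.9% lay between convergent genes, where no protein-coding gene starts, against 4.29% of all windows. Another 13.2% lay inside a gene, against 72.8% of all windows. Of the 331 regions between convergent genes, 46 (13.9%) overlapped a tRNA gene, and 4 of the 338 inside a gene did (1.18%).

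The regions had 1850 nearest genes, 30.9% of the 5989, and 520 of these had more than 1 region. Genes with much RNA in BY4741 were nearest genes more often. With genes in 10 equal groups by BY4741 FPKM, 49.4% of the highest group were nearest genes, 35.9% of the next, and between 24.4% and 30.9% of each lower group. The median BY4741 level was 46.2 FPKM over nearest genes and 34.5 FPKM over the other genes. Arp5 binding and RNA were read in different strains and growth states.

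By gene group, nearest genes made up 27 of 36 mating and pheromone genes (75%), 8 of 10 core histone genes, 15 of 21 genes of glycolysis and fermentation, 13 of 21 of the cell wall and 78 of 132 ribosomal protein genes. Amino acid synthesis had 22 of 41, hexose transport 8 of 15, the phosphate regulon 10 of 20 and translation factors 9 of 20. Chromatin remodelling and silencing (10 of 28), sulfur and methionine (7 of 22), inositol and phospholipid synthesis (5 of 16), cyclins and cell cycle regulators (9 of 29), ribosome biogenesis (14 of 47) and stress response (10 of 34) were between 29.4% and 35.7%, beside 30.9% of all genes. The 3 nearest genes with the highest summits of the chromatin list encode INO80 subunits: IES1 with 1.73, IES4 with 1.35 and NHP10 with 1.34.

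The highest summit, 3.45, lay on chrI:227501-227650, where the closest start is that of PHO11, an acid phosphatase gene, 2166 bp away; a second region there, chrI:230051-230150, reached 2.66 within 100 bp of the chromosome end. The next were chrIV:31851-32300, with 2.80 at -320 bp of PHO13, a phosphatase gene, chrV:558851-559350, with 2.58 at -228 bp of PUG1, a porphyrin transporter gene, and chrVI:95251-96250, with 2.44 at -340 bp of GAT1, an activator of nitrogen genes. The region on chrXV:110551-111150, with 2.22, lay behind ZEO1 and covered SUF1. YJL114W, HSP150, YLR264C-A and CLB1 were the nearest genes of the others among the highest 10, with summits between 2.17 and 2.21. HSP150 encodes a cell wall mannoprotein and CLB1 a mitotic cyclin.

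The widest region, 3150 bp on chrXIV:702851-706000, covered AGA1, which encodes the anchor of the a-agglutinin that joins mating cells. STE2, the alpha-factor receptor gene, lay in 2700 bp on chrVI:81701-84400, and FIG1, which acts in calcium uptake and fusion of mating cells, in 1900 bp on chrII:316251-318150. The other widest regions had YHL041W (2750 bp), CLB1 (2400 bp), NRG1 (2100 bp), BRP1 (1950 bp) and YCR006C (1800 bp) as nearest genes.

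In some mating genes the strong signal ran through the gene itself. Every window within AGA1, AGA2, STE2, MFA1, MFA2, FIG1, PRM3 and ASG7 was strong; ASG7, an a-specific gene, was not itself the nearest gene of any region. PRM4 had 82.4% of its windows strong, FIG2 58.3%, KAR4 40% and FUS1 38.7%. In 12 of the 36 mating genes no window was strong, among them GPA1, STE18 and STE4, which encode the subunits of the pheromone G protein, and the kinase genes STE7, STE11 and STE20. Among all genes of at least 6 windows, 67 of 5738 (1.17%) were at least 50% strong, and 8 of these 67 belonged to the 34 mating genes of that size. The cells used for the Arp5 ChIP had been released into alpha-factor, and what part the pheromone had in these regions was not tested.

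The H3K79me3 ratio over input was low over the regions in both strains, and less so in arp5. No ChIP of total H3 is among the libraries. For both marks, a low or changed ratio therefore cannot be told apart from a low or changed level of nucleosomes. The median log2 ratio over input was -1.23 in arp5 and -1.95 in BY4741, while over all windows it was 0.07 in arp5 and 0.04 in BY4741. The middle 50% of regions lay between -1.55 and -0.89 in arp5 and between -2.41 and -1.38 in BY4741. In BY4741 1.26% of strong windows were on the authors' list of H3K79me3 windows, against 34.3% of all windows. At equal distance from a start, strong windows stood below windows not on the Arp5 list: between 500 and 250 bp before it, medians in BY4741 were -2.27 in strong windows and -0.68 in the others, and in arp5 they were -1.39 in strong windows and -0.42 in the others.

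The arp5 minus BY4741 difference of H3K79me3 had a median of 0.70 (log2) over the regions and was above 0 in 2356 of 2562 (92.0%), against a median of 0.04 and 53.4% over all windows. It was 0.62 for summits under 1.25, 0.71 between 1.25 and 1.5, 0.86 between 1.5 and 2 and 1.02 for summits of at least 2. It was 0.81 between divergent genes, 0.70 between tandem genes, 0.62 between convergent genes and 0.47 inside genes. Over tRNA genes it was 0.86, with medians of -1.26 in arp5 and -2.13 in BY4741.

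Windows without any Arp5 listing showed a difference of similar size where H3K79me3 was equally low in BY4741. At a BY4741 level between -3 and -2 the median difference was 0.97 in 5373 strong windows and 0.95 in 4053 windows not on the Arp5 list; between -4 and -3 it was 1.33 in strong windows and 1.32 in unlisted ones, and between -2 and -1 it was 0.54 in strong windows and 0.56 in unlisted ones. Above 0 it was -0.22 in strong windows and -0.23 in unlisted ones. The sets lay further apart at levels up to -4, with 1.83 in strong windows and 1.70 in unlisted ones. Between -1 and 0 it was 0.14 in strong windows and 0.22 in unlisted ones. The BY4741 level that sets these groups also enters the difference, so the 2 are not independent. The spread of H3K79me3 over all windows was narrower in arp5 (SD 0.8502) than in BY4741 (SD 1.24). With 1 library per strain and no ChIP of total H3, a change of the mark, a change of nucleosomes and a different spread of the 2 libraries cannot be told apart.

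**Figure D2:**
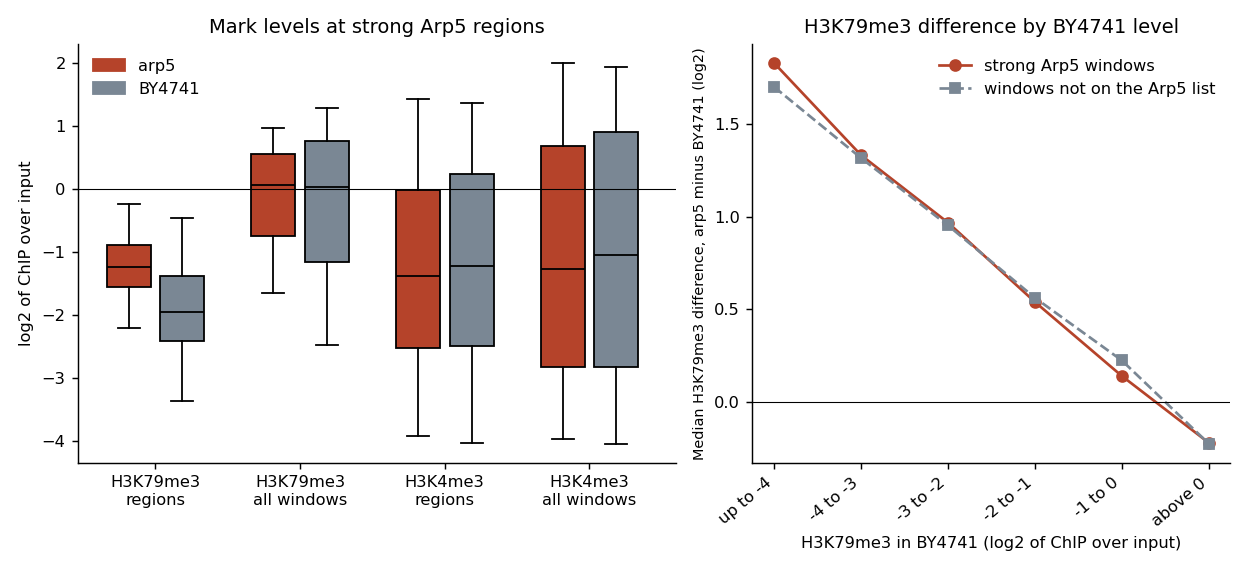
Left, H3K79me3 and H3K4me3 (log2 of ChIP over input) over strong Arp5 regions and over all windows, arp5 beside BY4741; boxes span the middle 50% with the median, whiskers the 5th and 95th percentiles. Right, median arp5 minus BY4741 difference of H3K79me3 (y axis, log2) by BY4741 level (x axis) in strong Arp5 windows and in windows not on the Arp5 list; the 2 lines run close together, at 0.97 and 0.95 for levels between -3 and -2.

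The 5 regions with the highest H3K79me3 difference were those of STE4 (2.88), YLL066C (2.84), the PHO11 region next to the end of chromosome I (2.64), TDH3 (2.59) and ATG27 (2.45). STE4 encodes the beta subunit of the pheromone G protein; its region on chrXV:742201-742650 stood at -1.26 in arp5 and -4.14 in BY4741. The lowest difference was that of ZRT1, the high-affinity zinc transporter gene, with -2.27 in arp5 and -1.05 in BY4741 on chrVII:20351-20500. Among the lowest 5 was RTP1 (-0.91), and 2 were regions of FIG2 (both -0.92), a mating adhesin gene on the right arm of III. YKL069W, with -0.86, was the remaining one.

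The deposited arp5 over BY4741 comparison of H3K79me3, the authors' own, gave a median of 0.77 over the regions. It departed from the ratios over input on chromosome III to the right of MAT, where its median over all windows was -0.97 while the difference of the ratios over input was 0.00239. There the RNA of all counted genes had a median log2 of -0.77 in arp5 and -0.90 in ies6 over BY4741. The double mutant stood at 0.88 over BY4741, and ino80 at 1.10 over CY337. Over the rest of chromosome III the medians were -0.00619 in arp5, 0.06 in ies6 and 0.13 in the double mutant, all over BY4741, and 0.96 in ino80 over CY337, so the ino80 value was not particular to the stretch right of MAT. The 20 regions in this stretch, those of FIG2 and GIT1 among them, had a median of -0.36 in the authors' table and 0.52 by the ratios over input, and the part of the shift of whole stretches of III in the RNA values of genes there was not tested.

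H3K4me3 differed little between the strains over the regions as a whole. Its median was -1.37 in arp5 and -1.21 in BY4741, while over all windows it was -1.26 in arp5 and -1.04 in BY4741. The median difference over the regions was -0.05 and turned to 0.03 once all windows were centred on their own median, so no direction is given. Regions over tRNA genes were lower, at -2.59 in arp5 and -2.52 in BY4741, and regions inside genes stood at 0.16 in arp5 and 0.42 in BY4741. In BY4741 15.1% of strong windows were on the authors' list of H3K4me3 windows, against 28.04% of all windows.

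Single regions moved by far more, and pheromone genes held several of the extremes. The lowest arp5 minus BY4741 differences of H3K4me3 were those of SST2 (-3.09), a regulator that ends the pheromone signal, FAR1 (-2.96), which arrests the cell cycle for mating, SIR2 (-2.89), a silencing deacetylase, KAR4 (-2.88), a factor for nuclear fusion, and TOP2 (-2.67), a topoisomerase. The SST2 region on chrXII:1041451-1042000 stood at -2.71 in arp5 and 0.39 in BY4741. The highest differences were those of HSP12 (3.22), a membrane chaperone induced by stress, YCT1 (2.93), STE4 (2.91), ASI1 (2.73) and GIT1 (2.38). The TOP2 region and this YCT1 region were each 1 window, with Arp5 ratios of 1.001 for TOP2 and 1.02 for YCT1. This YCT1 window stood at -6.59 in BY4741, and the other YCT1 region, in front of its start, had a difference of -1.60. Over the 44 regions of mating genes the median of H3K4me3 was -2.16 in arp5 and -1.28 in BY4741, with 35 lower in arp5 (79.5%), against 52.4% of the other regions. Over regions whose nearest gene stayed within 2-fold in arp5, H3K4me3 was lower in arp5 in 53.3% of 2124. Where the gene had more than 2-fold higher RNA, the mark was lower in 41.1% of 190. Where the gene was more than 2-fold lower, the share was 57.1% of 156, and 54.1% of 133 without the mating genes. These last 2 shares were near that of the genes within 2-fold.

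RNA of the nearest genes was set against the same values of all genes, since FPKM scaling holds the middle of all genes near 0. The fold change is log2 of the mutant's FPKM + 1 over that of its wild type, for genes of at least 5 FPKM in either, which understates changes of low genes. Medians over the counted nearest genes were -0.03 in arp5, -0.03 in ies6, -0.07 in ies2, -0.05 in ino80, -0.02 in the double mutant and 0.03 in sir3. Over all counted genes they were -0.01 in arp5, -0.02 in ies6, -0.03 in ies2, -0.02 in ino80, -0.00275 in the double mutant and 0.00149 in sir3. The 5 comparisons with BY4741 share its RNA values.

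Shares past 2-fold were higher among nearest genes than among all counted genes in most comparisons, by small margins that were not tested; for rises in the double mutant the shares were nearly equal. In arp5 132 of 1786 nearest genes (7.39%) were more than 2-fold higher, beside 5.7% of all counted genes, and 98 (5.49%) lower, beside 3.72%. In ies6 123 of 1776 (6.93%) were higher, beside 4.93%, and 88 (4.95%) lower, beside 3.5%. In ies2 81 of 1777 (4.56%) were higher, beside 3.23%, and 42 (2.36%) lower, beside 1.52%. In ino80 154 of 1794 (8.58%) were higher, beside 7.35%, and 130 (7.25%) lower, beside 4.32%. In the double mutant 275 of 1786 (15.4%) were higher, beside 15.2%, and 224 (12.5%) lower, beside 10.2%. In sir3, which does not belong to INO80, 40 of 1757 (2.28%) were higher, beside 1.32%, and 48 (2.73%) lower, beside 1.94%. Nearest genes with a summit of at least 1.5 had 7.74% higher and 8.41% lower in arp5.

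**Figure D3:**
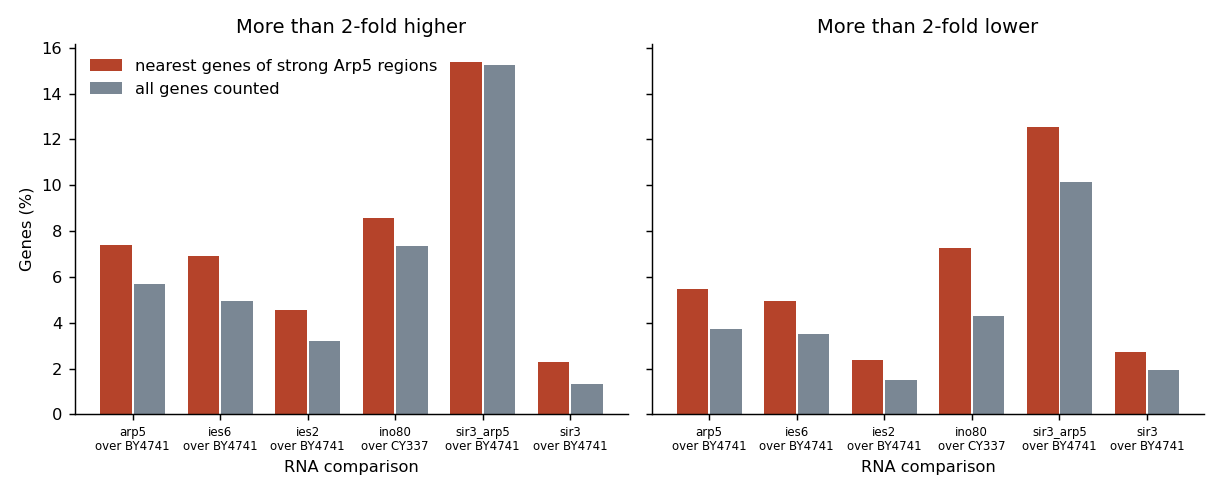
Share of genes (y axis, %) with RNA more than 2-fold higher (left) or lower (right) in 6 comparisons (x axis), for nearest genes of strong Arp5 regions and for all counted genes. In arp5 7.39% of nearest genes were higher, beside 5.7% of all genes, and 5.49% lower, beside 3.72%.

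Apart from the deleted genes, MFA1 had the largest fall of a nearest gene in arp5, ies6, sir3 and the double mutant. MFA1, which encodes the a-factor pheromone and whose 1250 bp region reached 1.96, had 1455 FPKM in arp5, 1472 in ies6, 56.0 in the double mutant and 85.7 in sir3, against 50355 in BY4741, while ies2 had 69744.5. In the other strain pair it had 51725.5 FPKM in ino80, against 47105 in CY337. STE2 had 13.5 FPKM in arp5, 14.2 in ies6, 4.67 in the double mutant and 5.87 in sir3, with 431.8 in BY4741. BAR1, a protease that degrades alpha-factor, had 6.72 FPKM in arp5 and 8.34 in ies6, against 134 in BY4741, and FUS3, the kinase of the pheromone pathway, had 3.59 in arp5 and 3.36 in ies6, against 57.6. AGA2 and MFA2 fell as well, with a log2 fold change of -3.797 for AGA2 and -4.92 for MFA2 in arp5.

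The mating list held no alpha-specific gene, so its counts say nothing of genes particular to alpha cells. Of the counted mating genes among the nearest genes, 16 of 24 were more than 2-fold lower in arp5 and 0 higher. Also lower were 18 of 24 in ies6, 16 of 25 in the double mutant and 17 of 24 in sir3. In ies2 1 of 25 was lower and 1 higher, and in ino80 2 of 26 were lower and 5 higher. Of these 5, FUS1 (2.11), FIG2 (1.67) and KAR4 (1.06) lie on chromosome III, whose genes stood about as high in ino80 as given above; FIG1 (1.69) and PRM3 (1.55) lie elsewhere. Among all counted genes, 3.72% were lower in arp5, 3.5% in ies6, 10.2% in the double mutant and 1.94% in sir3. In ies2 1.52% of all counted genes were lower and 3.23% higher, and in ino80 4.32% lower and 7.35% higher. Mating genes that were nearest to no region had counts like those of the nearest ones, with 6 of 9 lower in arp5, in ies6, in the double mutant and in sir3. MATALPHA1, an activator of alpha-cell genes whose copy at HML is normally silent, stood at 7.14 FPKM in arp5, 7.74 in ies6, 6.31 in the double mutant and 4.32 in sir3, against 0.208 in BY4741. It also had 2.95 FPKM in ino80, against 0 in CY337, a pair in which most mating genes were within 2-fold. HMLALPHA1 had 3.49 FPKM in arp5, 5.49 in ies6, 2.77 in the double mutant and 2.38 in sir3. HMLALPHA2 had 1.19 in arp5, 1.69 in ies6, 0 in the double mutant and 2.21 in sir3. Both HML genes stood at 0 in BY4741, ies2, ino80 and CY337. MATALPHA2, which encodes the repressor of a-cell genes, had 58.4 FPKM in arp5, 87.3 in ies6 and 89.1 in the double mutant. It had 216 in sir3 and 101.9 in BY4741. HMRA2, at the silent cassette HMR, had 94.5 in arp5, 146 in ies6, 161 in the double mutant and 381 in sir3, against 197 in BY4741. HMRA1, at the same cassette, had 86.8 in arp5, 128 in ies6, 308 in the double mutant and 408 in sir3, against 330 in BY4741. Reads of the MAT, HML and HMR copies may be shared, so the copy is uncertain. A level of the repressor therefore cannot be read from the MATALPHA2 values. The part of these alleles in the fall of the mating genes was not tested. Without the mating genes, 82 of 1762 nearest genes (4.65%) were lower in arp5 and 31 of 1733 (1.79%) in sir3.

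**Figure D4:**
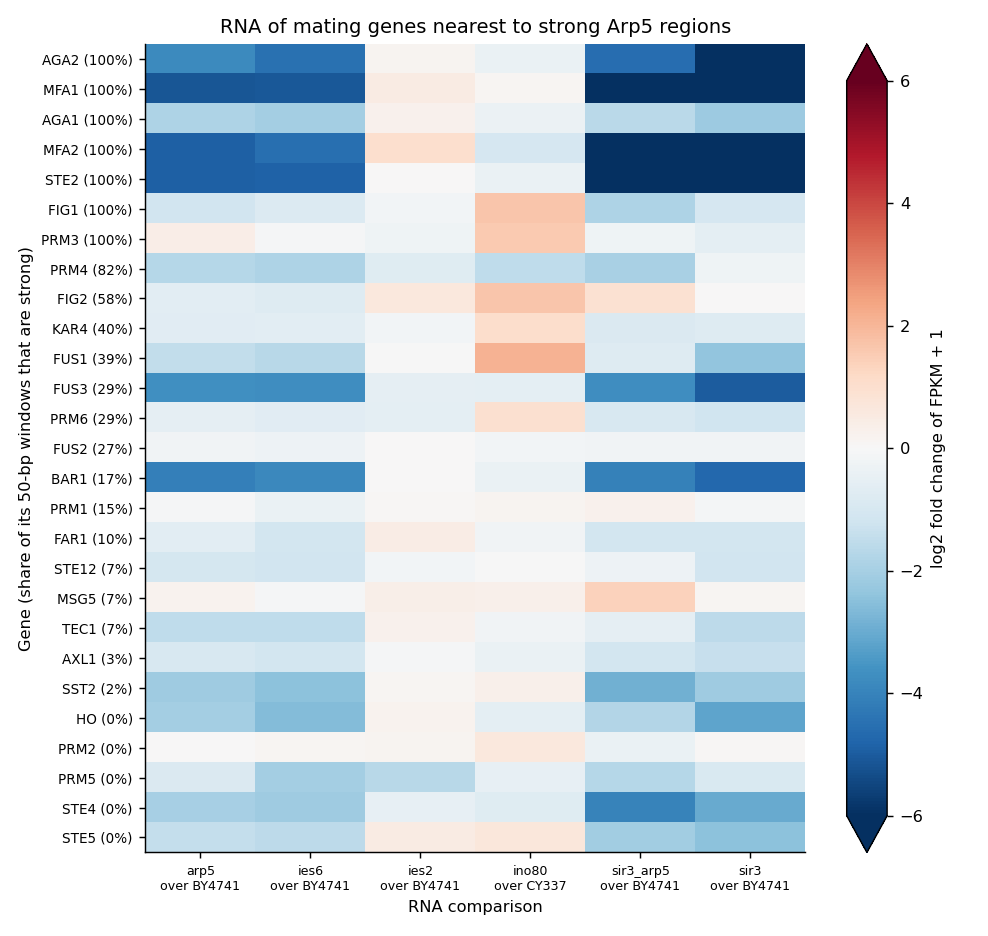
RNA of the 27 mating genes nearest to strong Arp5 regions (rows, with the share of each gene's 50-bp windows that are strong) in 6 comparisons (columns); colour is the log2 fold change of FPKM + 1, with blue lower and red higher in the mutant, cut at 6 in either direction, and genes under 5 FPKM, which were not counted, are drawn too. MFA1 was at -5.11 in arp5 and -9.18 in sir3 and at 0.47 in ies2.

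Phosphate genes were lower more often than higher in the INO80 mutants. Of 10 nearest genes of the phosphate regulon, 7 were more than 2-fold lower in arp5, 7 in ies6 and 4 in ies2. In ino80 9 were lower and in the double mutant 9, with 0 higher in each of the 5 mutants and 0 changed in sir3. Among all counted genes, 3.72% were lower in arp5, 3.5% in ies6, 1.52% in ies2, 4.32% in ino80 and 10.2% in the double mutant. Phosphate genes nearest to no region were not counted, so a tie of these falls to the Arp5 regions was not tested. PHO11 had 19.3 FPKM in arp5, 6.94 in ies6, 34.4 in ies2 and 34.9 in the double mutant, against 138 in BY4741, with 117 in sir3. In ino80 it had 6.24 FPKM, against 101.3 in CY337. PHO84, the high-affinity phosphate transporter gene, had 27.3 FPKM in ino80, against 813 in CY337, and SPL2, a regulator of phosphate uptake, 17.1 in ino80, against 210.3 in CY337. PHO81, which encodes an inhibitor of the Pho80-Pho85 kinase and had a summit of 2.15, stood at -0.99 in arp5 and -1.36 in ino80.

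Amino acid synthesis genes went the other way in some mutants. Of 22 nearest genes, 10 were more than 2-fold higher in arp5, 5 in ies6, 3 in ies2, 1 in ino80 and 3 in sir3, with 0 lower. In the double mutant 11 were higher and 3 lower. Among all counted genes, 5.7% were higher in arp5, 4.93% in ies6, 3.23% in ies2, 7.35% in ino80 and 1.32% in sir3. In the double mutant 15.2% of all counted genes were higher and 10.2% lower. List members nearest to no region were not counted here either. ARG1, of arginine synthesis, had 283 FPKM in arp5, against 36.9 in BY4741. Ribosomal protein genes, 78 nearest genes, had medians of -0.44 in arp5, -0.53 in ies6, -0.43 in ies2 and -0.42 in ino80, with 3 or fewer past 2-fold in each. In the double mutant, which also lacks ARP5, their median was 0.43, and in sir3 it was 0.08. Of the 78, 11 were more than 2-fold higher in the double mutant, beside 15.2% of all counted genes. Of 15 nearest glycolysis genes 5 were lower and 1 higher in ino80, beside 4.32% lower and 7.35% higher of all counted genes. ADH1, the alcohol dehydrogenase of fermentation, had 5614 FPKM in ino80, against 12538 in CY337.

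Among the nearest genes with the largest rises was HSP12. It had 4909 FPKM in arp5, 21161 in ies6 and 10047 in ies2, against 797 in BY4741, and 13400 in ino80, against 685 in CY337. It had 864 FPKM in sir3 arp5 cells, within 2-fold of BY4741, and 2484 in sir3, past 2-fold with no INO80 subunit deleted. Its region, with a summit of 1.32 on chrVI:107701-107850, lay 520 bp behind the start and had the highest H3K4me3 difference named above. ZRT1 had 535.7 FPKM in arp5 and 692 in ies6, against 43.3 in BY4741. HMX1, the heme oxygenase gene, had 91.3 in arp5, against 10.5 in BY4741. SPG4, needed in stationary phase, had 224 FPKM in ies2, against 15.8, and BTN2, which acts on misfolded proteins, had 18.9 in ies2, against 221 in BY4741. Of 10 nearest stress genes, 2 were higher and 3 lower in arp5, and 4 higher and 1 lower in ies6. In ino80 3 were higher and 4 lower, and in the double mutant 2 higher and 5 lower, so the list had no common direction. Among all counted genes, 5.7% were higher and 3.72% lower in arp5, and 4.93% higher and 3.5% lower in ies6. In ino80 7.35% were higher and 4.32% lower, and in the double mutant 15.2% higher and 10.2% lower.

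Further nearest genes were among the extremes of single comparisons. CMK2, a calmodulin-dependent kinase gene, had 50.2 FPKM in ino80, against 659 in CY337, and 63.9 in ies2, against 349 in BY4741. PHO89, a sodium-phosphate transporter gene with 3 regions, had 5.34 FPKM in ino80, against 48.3 in CY337, and 3.26 in arp5, against 37.1 in BY4741. FIT2, a cell wall protein of iron uptake, had 574 FPKM in ino80, against 54.01 in CY337, and NCE103, carbonic anhydrase, 1662 in ino80, against 167 in CY337. Each of these changes was past 2-fold. CIN5, a stress transcription factor gene, had 263 FPKM in ies6 and 60.1 in arp5, against 12.7 in BY4741.

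The double mutant, with 1 library, had the most genes past 2-fold and the lowest values of some. Its library carries BIOO in the title, while BY4741 has libraries with and without it. Genotype and whatever this title marks cannot be told apart in its values, those of the ribosomal protein genes included. RGI1 had 13.6 FPKM in sir3 arp5 cells, 287 in arp5 and 314 in sir3, against 341 in BY4741. TMA10 had 70.3 FPKM in sir3 arp5 cells, 620.7 in arp5 and 1339 in sir3, against 1835 in BY4741. In sir3 the 6 largest rises were of YOL103W-A, YDR261C-C, YPL257W-A, YPR158W-A, YKL096C-B and YGR038C-A; YOL103W-A had 18.6 FPKM in sir3, against 1.89 in BY4741. Most of these, YOL103W-A among them, are open reading frames of Ty elements, near-identical copies between which reads can be split, so their values are uncertain.

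The genes of the highest summits did not share a direction. PHO13 had 168 FPKM in arp5, against 244 in BY4741, and PUG1 10.5 in arp5, against 6.68 in BY4741, both within 2-fold. GAT1 rose past 2-fold, with 39.4 FPKM in arp5, against 15.5 in BY4741, and CLB1 fell past it, with 23.6 in arp5, against 58.5 in BY4741. HSP150 had 1701 FPKM in arp5, against 1143 in BY4741, also within 2-fold. PHO11 and ZEO1 fell past 2-fold as well, with log2 fold changes in arp5 of -2.78 for PHO11 and -1.33 for ZEO1. YLR264C-A stayed within 2-fold, and YJL114W was under 5 FPKM in both strains. Falls past 2-fold were thus those of PHO11, ZEO1 and CLB1, and GAT1 had the only such rise. In the regions with the extreme H3K4me3 differences, SST2 had 8.44 FPKM in arp5, against 40.5 in BY4741, and STE4 31.5 in arp5, against 127 in BY4741, so that the 2 genes were both lower in RNA while H3K4me3 over their regions was lower at SST2 and higher at STE4. FAR1 and KAR4 stayed within 2-fold, with log2 fold changes of -0.61 for FAR1 and -0.69 for KAR4.

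RNA in front of the starts stood above the wild types in INO80 mutants, and the place of the highest ratio differed between genes with and without a strong region. In the authors' deposited gene tables, which give the log2 RNA ratio in 100-bp windows before the start, the median between 300 and 200 bp before it was 0.59 in arp5 for the genes with a region over the start, against 0.36 for genes that were nearest to no region. In ies6 it was 0.57 with a region and 0.32 without, in ies2 0.39 with and 0.26 without, and in ino80 0.74 with and 0.62 without. Between 200 and 100 bp the order turned, with 0.56 for region genes in arp5, against 0.61 for the others, and 0.55 in ies6, against 0.57. In ies2 it was 0.26 with a region and 0.32 without, and in ino80 0.72 with and 0.88 without. Between 100 and 0 bp it was 0.23 for region genes in arp5, against 0.34 for the others, and 0.42 in ino80, against 0.58. In sir3 the medians between 300 and 200 bp were near 0 in both sets, -0.00406 with a region and -0.04 without. These tables do not part the strands, and the start is that of the reading frame. RNA of a neighbour and of the gene itself therefore cannot be told apart in these windows.

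**Figure D5:**
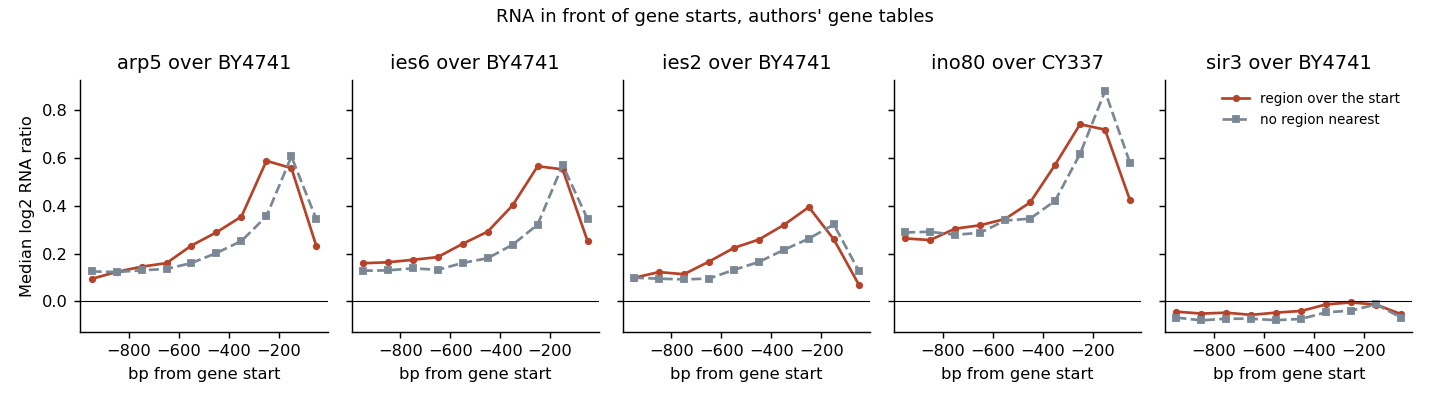
Median log2 RNA ratio of mutant over wild type (y axis) in the 10 windows of 100 bp before gene starts (x axis, bp) in the authors' deposited tables, for genes with a strong Arp5 region over the start and for genes nearest to no region. In arp5 the region genes were highest between 300 and 200 bp before the start, at 0.59, and the other genes between 200 and 100 bp, at 0.61.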

How the data were processed

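ChIP files deposited by the authors give log2 of precipitate over input per 50-bp window, aligned with Bowtie 0.12.9 to sacCer3 per the submitters' processing notes; significant windows were called by a method not given in the sources used here. RNA values as deposited are FPKM, 1 column per genotype, made with TopHat2 2.0.8 and Cuffdiff 2.0.2 per the same notes. The authors' deposited gene tables hold log2 RNA ratios in 35 windows per gene.

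Strong windows that touch were joined, and marks were averaged over each region. Starts came from the authors' gene tables for the 5989 of 6664 genes that matched a RefSeq name (assembly R64); tRNA genes came from RefSeq. The nearest gene is the one whose start is closest to the summit. Named genes are those of the 10 highest summits and 8 widest regions, the 5 extremes of each mark, the 6 largest RNA rises and falls of each comparison, up to 3 members of each list, mating genes and the deleted genes; other examples were chosen after their values were seen. Members and lists were chosen with earlier results of these data known. The functions were tested on simulated data. Python 3.11.15 with numpy 2.4.6 and pandas 2.3.3 was used. Gene tables split by strand were not used.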

Additional observations from a re-analysis of the deposited data

How the results depend on the processing

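No paired analysis was possible because each genotype has 1 RNA column and each ChIP 1 library; leaving out replicates and tests on single libraries were not run for the same reason. Of the alternatives to the summary values, 16 moved outside the interval of the value reported, 1 reversed and the others stayed within it. That interval is a 95% binomial one over regions or genes, which are not replicates. It served only as a yardstick for these moves and measures no spread between libraries. With an Arp5 threshold of 0.8 there were 4390 regions and a median H3K79me3 difference of 0.58; with 1.5 there were 580, a difference of 0.91, 50.9% of summits over a start and a median RNA log2 of -0.13 in the double mutant. The H3K79me3 difference was 0.72 for regions of at least 2 windows, 0.67 at the summit window, 0.65 when centred on all windows, 0.77 in the authors' table and 0.67 without regions within 500 bp of a tRNA gene. The H3K4me3 difference became 0.029 when centred. The share of summits over a start was 41.1% with 300 bp in front, 61.7% with all genes of the FPKM table and 62.5% without the tRNA regions. The ies2 median was -0.091 at a mean of at least 10 FPKM and -0.037 when centred. Of 180 counts past 2-fold, 21 moved by more than 1.5 times, most with the Arp5 threshold; with a pseudocount of 5, 83 nearest genes were higher in arp5, against 132 reported, and 26 in sir3, against 40. Using all genes of the FPKM table and leaving out the tRNA regions or the mating genes were alternatives chosen after seeing the data. The cause of these moves was not tested.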
